A study of Mus musculus with 4 samples.

Results

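White adipose tissue of female mice of the F1 generation, fed a high fat diet, was set against that of chow-fed mice, gene by gene. Genes were taken into the comparison where at least 1 probe reached a detection p under 0.01 on either array, which gave 10768 of the 11384 genes detected anywhere in the series. The study profiled adipose RNA of C57BL/6 females aged 9 months on Illumina mouse bead arrays, to see how continuous high fat feeding over generations bears on adipose gene expression. The F1 array held a mix of 4 samples from mice of the F1 generation fed for 9 months on a high fat diet in which fat supplied 60% of the calories, and the chow array a mix of 3 samples from mice fed normal chow for 9 months. The labels leave unsaid if each mixed sample was its own animal, what the F1 mothers ate, or which fat depot was taken. The F0 and F2 arrays, each a mix of 4 high fat samples of the same age, strain and sex, are quoted only beside F1 values. With 1 array a side there is no replicate check and no test, so every difference is described by its size.

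White fat stores energy as triglyceride in large adipocytes and releases it as fatty acids, and it signals its stores through hormones such as leptin. In obesity the tissue enlarges, adipocytes make less fatty acid from glucose, and macrophages gather around dying fat cells, where they clear lipid through their lysosomes. The tissue also holds blood vessels, fibroblast-like progenitors, nerves, lymphatics and, around abdominal depots, a mesothelial sheet.

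Each gene was represented by its brightest probe, and its level is given as a log2 signal after background correction and quantile normalization. Levels of different genes were not set against each other, since probes differ in brightness. On the F1 array 37.8% of 45281 probes were detected, against 39.8% on the chow array. A gene was counted as higher or lower where its log2 signals differed by at least 1, that is 2-fold, and its probe was detected on the brighter array. By that count 837 genes were higher on F1, which is 7.77% of the 10768, and 720 were lower, which is 6.69%. The counts over gene lists below are to be read beside these shares, and a list near them sets its genes apart from no others. The difference was at least 4-fold for 202 higher and 187 lower genes and at least 16-fold for 20 and 13. With the authors' own background-subtracted values the split turned round, to 903 higher and 1191 lower, so the balance of the directions depends on the scaling. The median difference over all genes, F1 minus chow, was −0.04 on the log2 scale, and 90% of the genes lay between −1.19 and 1.31.

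The probe of 9280 genes was detected on both arrays, of 570 on F1 alone and of 918 on chow alone. For genes seen on 1 array alone the fold is written as "at least", since it is taken against the dimmest detected probe on the array where the gene was missed, a log2 signal of 4.94 on F1 and 4.82 on chow. Where it shifts a list's median by 0.05 or more, the median with such genes at their bound is added in brackets. Such genes were counted by their fitted difference, which uses the signal of the undetected probe. Of 201 higher genes seen on F1 alone 136 were at least 2-fold at the bound, and of 224 lower genes seen on chow alone 145. Others, such as Lpin3, Fgf21, Tbx1 and Pgr below, are counted with a bound under 2-fold. A gene seen only where it is bright had to differ, so the counts over gene lists below describe the detected genes of a list and nothing beyond them. A further 1254 genes reached a detection p between 0.01 and 0.05 only, and 0 of them met the 2-fold count. Their median log2 signals were 4.69 on F1 and 4.64 on chow, near the floor. A 2-fold difference was hardly possible there, so the count of 0 says nothing about the choice of limit. The only technical gauge within these arrays is the agreement between probes of a gene: over 3203 genes with several probes detected on both arrays, the SD of the difference between probes was 0.294 on the log2 scale. Of 324 counted genes with several probes, 306 had all their probes on the same side and 200 had all of them at least 2-fold apart. In tissue RNA, fewer cells of a type and less RNA per cell cannot be told apart.

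**Figure D1:**
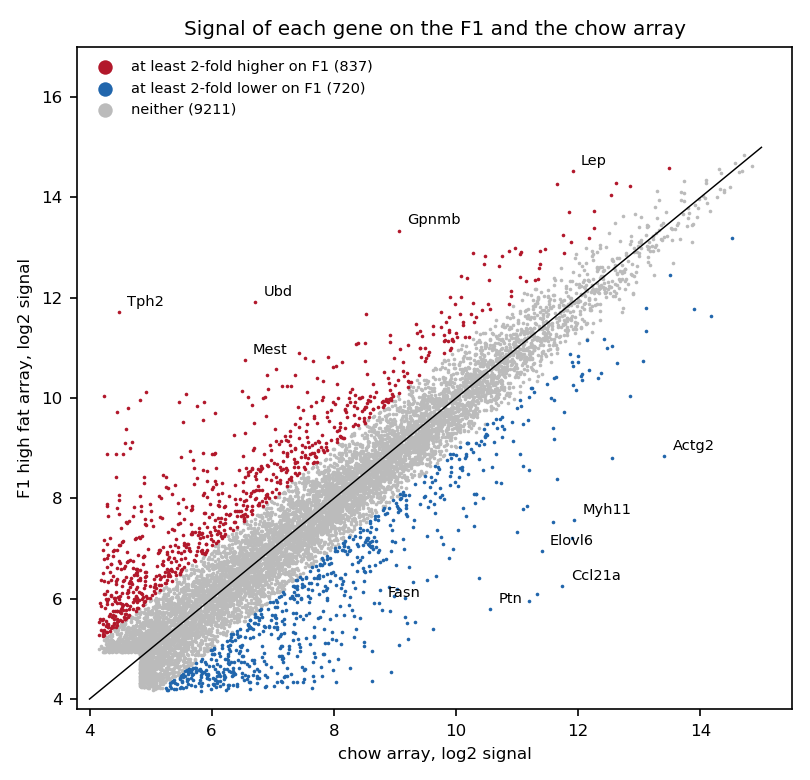
Log2 signal of each of 10768 genes on the F1 array (vertical) and the chow array (horizontal), 1 point a gene, with the diagonal of equal signal. Red points are the 837 genes at least 2-fold higher on F1, blue points the 720 at least 2-fold lower, and named examples stand far from the diagonal on both sides.

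The tissue label was checked against adipocyte markers, and 17 of 17 detected ones were present on both arrays. Adipoq, which encodes the adipocyte hormone adiponectin, had a log2 signal of 13.49 on F1 and 13.64 on chow. Pparg, the master regulator of fat cell differentiation, had 11.15 on F1 and 11.24 on chow, and the triglyceride lipase gene Pnpla2 13.68 on F1 and 13.72 on chow. The adipocyte list as a whole had a median difference of 0.10, close to that of all genes, with 2 genes higher and 2 lower. The 2 higher ones were Lep, the leptin gene, at 14.52 on F1 and 11.91 on chow, and the glycerol channel gene Aqp7, 2.09-fold higher. The 2 lower ones were Slc2a4, the insulin-responsive glucose transporter, 2.25-fold lower, and Pck1, the cytosolic carboxykinase that feeds glyceride synthesis, 2.40-fold lower. The other 13 markers lay within 2-fold.

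Among secreted factors of fat, 3 of 13 detected genes were higher and 2 lower. Lcn2, a siderophore-binding lipocalin, had a log2 signal of 8.97 on F1 and 6.97 on chow, and the progranulin gene Grn 12.42 on F1 and 11.05 on chow. Nrg4, a growth factor secreted by fat that acts on the liver in mice, was 3.65-fold lower, and Agt, the angiotensinogen gene, 2.81-fold lower. Resistin, encoded by Retn, differed by −0.94 on the log2 scale, just under 2-fold.

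Genes that mark expanding fat in mice included some of the largest differences among the adipose lists. Of 14 detected genes 7 were higher and 1 lower, with a median difference of 0.96. Sfrp5, a secreted inhibitor of Wnt signalling, had a log2 signal of 9.81 on F1 and was not detected on chow, at least 31.7-fold higher. Mest, an imprinted gene whose level follows adipocyte enlargement, had 10.76 on F1 and 6.54 on chow, 18.6-fold higher. Trp53inp2 was 6.46-fold higher, the growth factor gene Bmp3 3.93-fold, the natriuretic peptide clearance receptor Npr3 3.47-fold and Peg3, another imprinted gene, 2.45-fold. Dlk1, an imprinted inhibitor of fat cell differentiation, lay on the other side at −2.09 (−1.48 with its probes averaged).

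Across 12 imprinted genes the directions were mixed, 2 higher and 4 lower. Besides Mest and Peg3 on the high side, Igf2, a fetal growth factor, was 3.45-fold lower, Rasgrf1 2.38-fold and the adaptor gene Grb10 2.04-fold. Nnat and Gnas differed by 0.21 and 0.29. Among 13 Wnt pathway genes, Sfrp5 was the 1 higher gene, and the lower ones were Ror2 and Dkk3. Ror2, a receptor for Wnt5a, was 12.8-fold lower with a log2 signal of 4.96 on F1 and 8.63 on chow, and Dkk3 was 2.65-fold lower. Rspo3, which amplifies Wnt signals, was detected on chow alone, at 8.26, with a difference of −3.32 or beyond against the bound (fitted −3.64, and −2.51 with its probes averaged).

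Genes of fatty acid synthesis were lower on F1. Of 16 detected genes 9 were lower on F1 and 1 higher, with a median difference of −1.16. Acly, which turns citrate into cytosolic acetyl-CoA, had a log2 signal of 11.63 on F1 and 14.18 on chow, and Fasn, the synthase that builds palmitate, 5.91 on F1 and 8.74 on chow. Thrsp, which promotes lipogenesis, was 6.98-fold lower. Acacb, an acetyl-CoA carboxylase gene, was 4.62-fold lower by its brightest probe (−2.21, and −1.34 with its probes averaged). The other acetyl-CoA carboxylase gene, Acaca, was detected on neither array. Acss2, which makes acetyl-CoA from acetate, was 3.66-fold lower (−1.87, and −1.24 with its probes averaged). Me1, the malic enzyme that supplies NADPH, was 2.47-fold lower. The regulators stood on the same side: Mlxipl, which encodes the glucose-responsive factor ChREBP, was 2.41-fold lower and Srebf1, the insulin-responsive SREBP1 gene, 2.23-fold. Insig1, which retains SREBPs in the endoplasmic reticulum, was the exception at 2.43-fold higher.

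Chain modification was less uniform. Elovl6, which elongates palmitate, was 21.8-fold lower (−4.45, and −2.81 with its probes averaged), and the desaturase gene Fads1 2.26-fold. Fads2 was detected on chow alone, at 6.27, and was at least 2.51-fold lower (fitted −1.49, and −0.90 with its probes averaged, which ends its count). Scd1, the major desaturase of fat, differed by −0.07, with a log2 signal of 13.85 on F1 and 13.92 on chow. The other 10 detected elongases, dehydratases and desaturases stayed within 2-fold.

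Genes of triglyceride assembly and breakdown were counted in both directions. Of 15 assembly genes 1 was higher and 2 lower, beside the 7.77% higher and 6.69% lower over all genes. The acyltransferase genes Gpat3 and Gpam were 2.81-fold and 2.15-fold lower. Lpin3 was detected on F1 alone at 5.78, at least 1.94-fold higher. Dgat2, which catalyses the last step, had a log2 signal of 13.43 on F1 and 13.78 on chow. Of 14 lipolysis genes 2 were higher and 3 lower. Hilpda, an inhibitor of the lipase ATGL induced by low oxygen and fatty acids, had 9.92 on F1 and 8.26 on chow, while ATGL itself, encoded by Pnpla2, and hormone-sensitive lipase, encoded by Lipe, differed by −0.04 and −0.22. The carboxylesterase gene Ces1f, whose paralogs may share its signal, was 3.02-fold lower and Hcar2, a receptor that restrains lipolysis, 2.20-fold. On the lipid droplet, Plin2, a coat protein of small droplets also found in foam cells, was 3.01-fold higher, and Cidea, a droplet protein of brown and beige fat, 8.92-fold lower. Of 17 genes of fatty acid uptake 0 were counted either way, with a median of 0.41; the lipoprotein lipase gene Lpl lay at 14.68 on F1 and 14.57 on chow. The summed signal of the 17 adipocyte markers was 107000 on F1 and 83500 on chow, and without Lep, which makes most of that gap, 83300 on F1 and 79600 on chow.

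**Figure D2:**
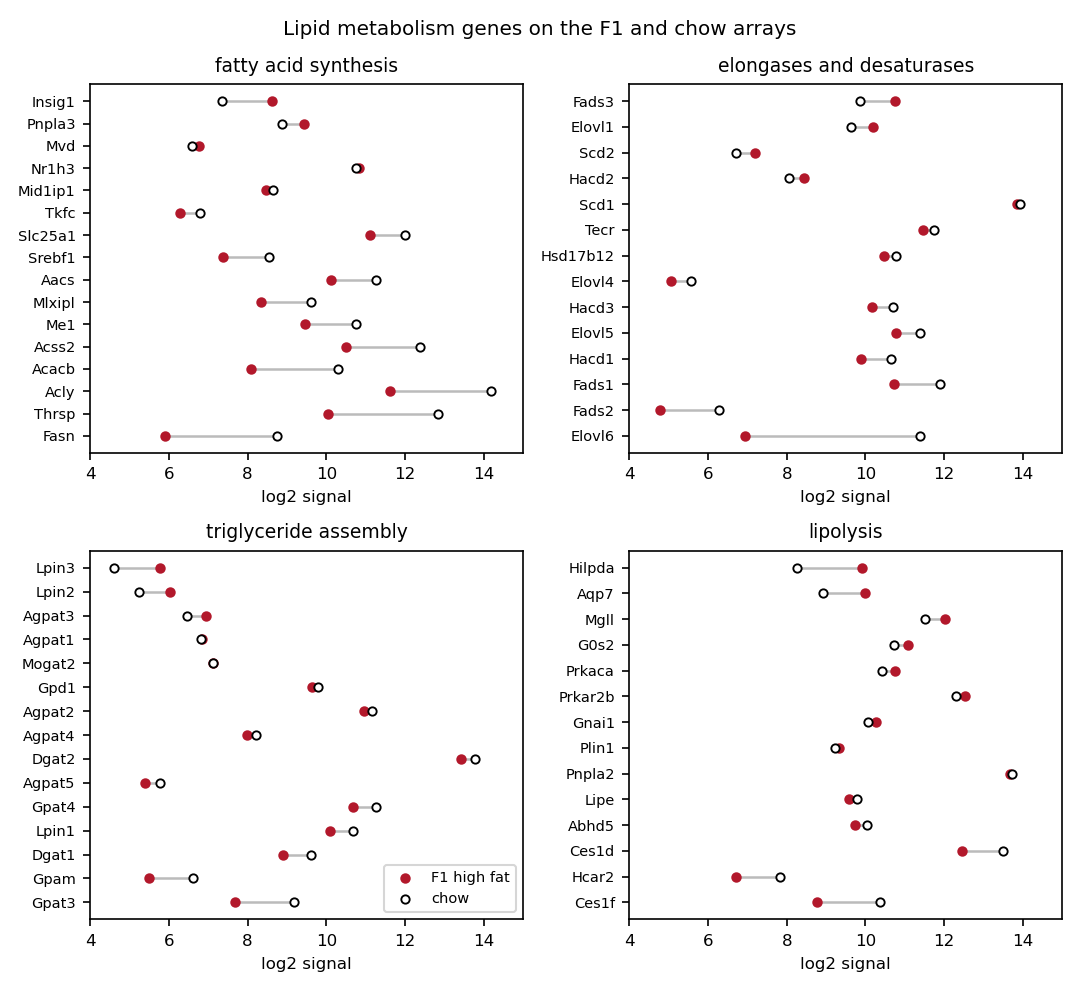
Log2 signal of the detected genes of 4 lipid lists on the F1 array (filled red) and the chow array (open), 1 row a gene, ordered by the difference. In the fatty acid synthesis panel 9 genes have F1 at least 2-fold to the left of chow, against 2 in the assembly and 3 in the lipolysis panel.

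Thermogenic genes were on the low side, 3 of 11 lower and 1 higher. Ucp1, which uncouples respiration in brown and beige adipocytes, had a log2 signal of 5.40 on F1 and 8.37 on chow, 7.83-fold lower. Tbx1, a marker of beige cells, was detected on chow alone at 5.80, at least 1.81-fold lower. Fgf21, a hormone of liver and fat, was detected on F1 alone at 5.80, at least 1.97-fold higher, and the brown fat factor gene Prdm16 differed by 0.31. Among 18 transcription factors of adipogenesis, Gata2, which is anti-adipogenic, was 3.87-fold lower. Klf5 and Srebf1 were 3.03-fold and 2.23-fold lower and Ddit3 2.16-fold higher, while Cebpa and Cebpb differed by 0.21 and 0.44.

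Insulin signalling and glucose handling leaned low, with 7 of 24 genes lower and 2 higher. The insulin receptor gene Insr had a log2 signal of 9.22 on F1 and 10.47 on chow, a difference of −1.26 that came to −0.83 with its probes averaged, which ends its count. The IGF1 receptor gene Igf1r had 6.69 on F1 and 8.30 on chow. Pik3r1, the regulatory subunit of PI3-kinase, was 2.31-fold lower and the glucose transporter gene Slc2a3 2.43-fold. The adaptor genes Irs2 and Irs3 differed by 0.10 and 0.86. Hk3, a hexokinase of myeloid cells, was 7.48-fold higher, and Trib3, an inhibitor of AKT induced by stress, 2.20-fold.

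Genes of the respiratory chain lay slightly below chow. Of 30 respiratory chain genes 0 were counted either way, and 28 had a negative difference, with a median of −0.37 and a range from −0.79 to 0.03. The 30 cytosolic ribosomal protein genes also had a negative median, −0.22, with 0 counted. Both subunit genes of pyruvate dehydrogenase E1, which admits pyruvate to the citric acid cycle, were further out: Pdha1 had a log2 signal of 10.56 on F1 and 12.18 on chow and Pdhb 9.22 on F1 and 10.76 on chow. Pdk4, the kinase that shuts this enzyme, was 2.19-fold higher, and Pcx, which makes oxaloacetate from pyruvate, 2.41-fold lower. Fatty acid oxidation had a median of −0.06 over 25 genes, with Acaa1b, a peroxisomal thiolase, the 1 higher gene.

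Macrophage transcripts were higher on F1. Of 18 detected markers, among 21 with a named probe, 17 were higher and 0 lower, with a median of 1.98, and their summed linear signal was 36500 on F1 and 7980 on chow. Tyrobp, the signalling adaptor of myeloid receptors, had a log2 signal of 10.90 on F1 and 7.43 on chow. Adgre1, which encodes the macrophage surface protein F4/80, had 10.72 on F1 and 8.13 on chow, and Csf1r, the receptor that keeps macrophages alive, 10.12 on F1 and 8.70 on chow. The lysozyme gene Lyz2 was 6.14-fold higher (2.62, and 1.72 with its probes averaged) and Ms4a7 11.6-fold (3.53 and 2.07). Mertk, a receptor for apoptotic cells, was the marker that did not differ by 2-fold, at 0.18.

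Genes of lipid-associated macrophages showed 9 of 18 higher and 0 lower. Mmp12, the macrophage elastase, had a log2 signal of 9.72 on F1 and was not detected on chow, at least 29.9-fold higher. Trem2, the lipid-sensing receptor of these cells, had 11.68 on F1 and 8.53 on chow, and Slc15a3, a lysosomal peptide transporter, 9.85 on F1 and 5.76 on chow. Lgals3, which encodes galectin-3, was 3.62-fold higher. Genes of alternatively activated macrophages were split, 2 higher and 4 lower of 20, with a median of 0.02. Arg1 was detected on F1 alone, at 7.41, whereas Retnla differed by −0.71, Cd163 by 0.16, and Gas6, a ligand of Mertk, was 3.06-fold lower.

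Receptor genes of myeloid cells were also higher on F1. Of 23 detected lectin and Fc receptor genes 15 were higher and 0 lower, with a median of 1.62. Cd72 had a log2 signal of 9.56 on F1 and 5.86 on chow, and Cd84, an adhesion receptor of leukocytes, 10.14 on F1 and 6.50 on chow (a difference of 3.64, and 2.07 with its probes averaged). Clec4d, a C-type lectin that binds mycobacterial glycolipid, was 8.97-fold higher, and the activating Fc receptor genes Fcgr4 and Fcgr3 8.63-fold and 5.71-fold.

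The promoters of Cd72 and Cd84 are shown because both hold a short purine-rich motif, GAGGAA, the core of the PU box bound by myeloid ETS factors. It was found on either strand in 12 of the 15 promoters available for this list, 80.0%, against 28.4% of all 22862 promoters of the same 300 bases in the RefSeq table (build GRCm38.p6). A match describes letters and is not a binding site. The motif is in capitals, as it reads on the gene's strand, in the window from 250 bases before to 50 after the start.
Cd72, chr4:43454577-43454876, minus strand: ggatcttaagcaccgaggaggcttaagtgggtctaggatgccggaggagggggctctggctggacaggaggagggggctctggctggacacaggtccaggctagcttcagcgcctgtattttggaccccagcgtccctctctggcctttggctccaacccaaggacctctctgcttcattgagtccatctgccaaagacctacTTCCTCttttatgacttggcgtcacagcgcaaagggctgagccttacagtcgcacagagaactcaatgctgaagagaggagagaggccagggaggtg
Cd84, chr1:171839447-171839746, plus strand: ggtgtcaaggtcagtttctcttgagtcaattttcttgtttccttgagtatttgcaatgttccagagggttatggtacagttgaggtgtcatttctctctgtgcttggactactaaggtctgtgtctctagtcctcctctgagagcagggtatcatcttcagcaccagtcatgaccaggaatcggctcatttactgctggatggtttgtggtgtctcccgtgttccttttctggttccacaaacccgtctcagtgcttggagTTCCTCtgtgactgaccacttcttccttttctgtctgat
Each window holds 1 match, read as TTCCTC, the reverse complement of GAGGAA. Among all genes counted as higher the motif was in 30.9% of 538 promoters, near the share of all promoters.

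**Figure D3:**
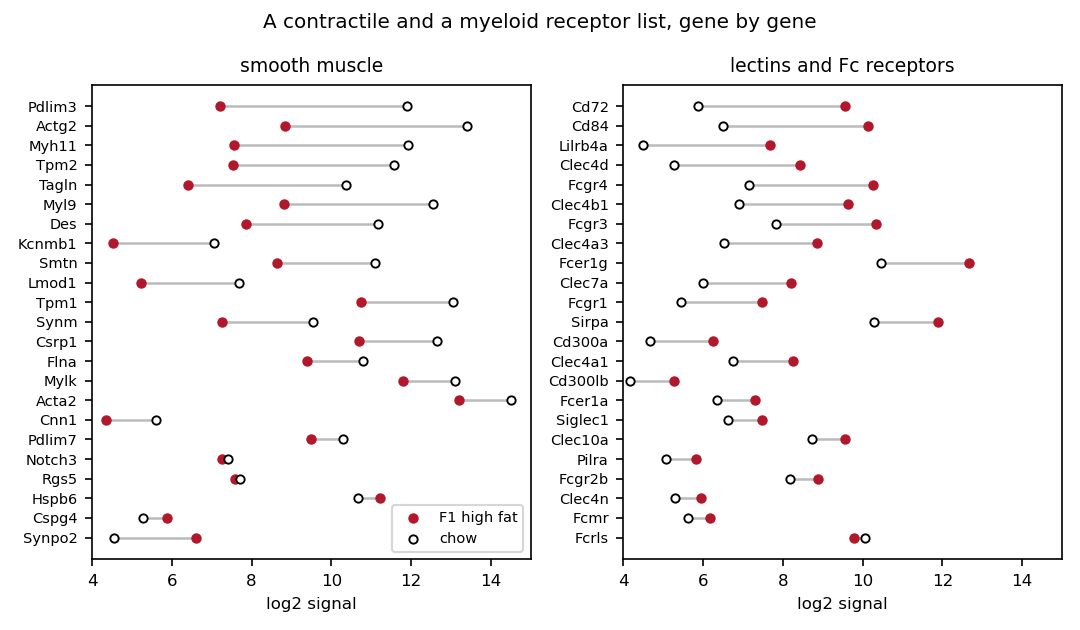
Log2 signal of each detected gene of the smooth muscle list (left) and of the lectin and Fc receptor list (right) on the F1 array (filled red) and the chow array (open). F1 lies left of chow for most contractile genes and right of it for all receptors except Fcrls.

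Sensors of microbial products were unevenly higher, 10 of 21 and 0 lower. Tlr13, which senses bacterial ribosomal RNA, had a log2 signal of 8.95 on F1 and 5.64 on chow (a difference of 3.30, and 2.67 with its probes averaged). Cd180, a TLR4-like receptor, had 8.04 on F1 and 4.83 on chow (3.22 and 1.62), and its partner gene Ly86 was 4.46-fold higher. Tlr7, a sensor of single-stranded RNA, was 3.85-fold higher. Tlr4, the endotoxin receptor, and the adaptor gene Myd88 differed by 0.07 and 0.03.

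Lysosomal genes lay mostly above chow. Of 37 detected genes 15 were higher and 0 lower, 36 lay above chow, and the median was 0.84. Lgmn, an asparaginyl endopeptidase, had a log2 signal of 12.40 on F1 and 10.18 on chow, Ctsk, the collagen-degrading cathepsin K, 11.48 on F1 and 9.34 on chow and Lipa, the acid lipase of lysosomes, 11.62 on F1 and 9.89 on chow. Ctss, a cathepsin of antigen-presenting cells, was 4.74-fold higher. Ctsa was 3.85-fold higher by its brightest probe (1.94, and 1.17 with its probes averaged), and Glb1, at 1.80, came to 0.70 over its probes, which ends its count. Lamp2, a major membrane protein of lysosomes, lay at −0.18. The palindrome CACGTG, the core of the element read by the TFEB family, occurred in 10 of 28 lysosomal promoters, 35.7%, against 7.12% of all promoters. The promoter of Ctsl, a cathepsin detected on F1 alone at a log2 signal of 6.53, is shown with that motif in capitals.
Ctsl, chr13:64370471-64370770, minus strand: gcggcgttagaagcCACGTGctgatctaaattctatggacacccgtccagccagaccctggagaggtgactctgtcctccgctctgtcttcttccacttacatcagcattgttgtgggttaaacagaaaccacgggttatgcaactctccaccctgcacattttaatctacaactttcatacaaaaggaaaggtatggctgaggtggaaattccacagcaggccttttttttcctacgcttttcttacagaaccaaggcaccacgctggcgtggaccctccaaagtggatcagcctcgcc

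In the CC chemokine family 7 of 19 genes were higher and 2 lower. Ccl4 had a log2 signal of 9.53 on F1 and 5.53 on chow (a difference of 4.00, and 3.40 with its probes averaged), Ccl2, the chief monocyte attractant, was detected on F1 alone at 6.69, and Ccl7 had 8.60 on F1 and 6.66 on chow. Ccl6 was 4.16-fold higher and Ccl9 3.52-fold. The 2 lower genes were the lymphatic chemokines Ccl21a and Ccl21c, near-identical copies whose probes may share transcripts. In the CXC family 3 of 14 were higher and 0 lower. Cxcr4, the receptor for Cxcl12, was 2.75-fold higher and Cxcl1, a neutrophil attractant, 2.31-fold.

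Of 20 detected genes of cytokines and their receptors 5 were higher and 2 lower. Apart from Il1rn and Tgfb1, the higher genes encode receptors. The cytokine genes Il1a, Il1b, Il6, Ifng, Lif and Csf2 were detected on neither array. Il1rn, which encodes the IL-1 receptor antagonist, was detected on F1 alone at 7.81 and was at least 7.91-fold higher (fitted 3.36, and 2.59 with its probes averaged). Il7r had a log2 signal of 8.91 on F1 and 5.86 on chow (3.05 and 2.16), and Tgfb1 8.56 on F1 and 6.44 on chow. Il33, an alarmin of stromal cells, was 4.37-fold lower, and Tgfb2, detected on chow alone, at least 2.93-fold lower. Tnf was detected on F1 alone, at 5.34, and was under 2-fold. Of 14 leukocyte adhesion genes 6 were higher and 0 lower. Itgad, an integrin of tissue macrophages, was at least 37.4-fold higher (fitted 5.81, and 4.05 with its probes averaged), and the selectin ligand gene Selplg 3.84-fold, while Itgb7 and Icam1 differed by −0.02 and −0.13.

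Complement genes were higher in 10 of 18 and lower in 2. The 3 chains of C1q, the recognition molecule that macrophages make, stood together: C1qa had 10.79 on F1 and 8.99 on chow, C1qb 12.93 on F1 and 10.87 on chow and C1qc 12.63 on F1 and 10.70 on chow. C2 and Masp1, proteases of the classical and lectin pathways, were 3.26-fold and 5.07-fold lower (for Masp1 −2.34, and −1.45 with its probes averaged). Antigen presentation by MHC class II was higher in 7 of 13 genes, with H2-DMb1, which loads peptides, at 10.12 on F1 and 8.26 on chow and the invariant chain gene Cd74 at 12.89 on F1 and 11.76 on chow. In the immunoproteasome list, Ubd, which encodes the ubiquitin-like FAT10, had 11.92 on F1 and 6.71 on chow and the catalytic subunit gene Psmb8 was 2.08-fold higher, whereas Tap1 and Psme1 differed by −0.06 and −0.19. Interferon-stimulated genes stayed near chow, 3 of 36 higher with a median of 0.13, among them Irf5 and Irf8, which myeloid cells use, at 1.63 and 1.11.

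Markers of lymphocytes, mast cells and neutrophils had medians nearer to 0 than those of macrophages. B and plasma cell genes had a median of 0.39 over 8 detected genes, and T and NK cell genes of 0.46 over 15, 2 of each higher. The T cell gene Cd3e differed by 0.43 by its brightest probe and lay on the other side of 0 by its second one, the B cell gene Cd79b differed by 0.77, and Cd4, Cd8a and Ms4a1 were detected on neither array. Mast cell proteases were level, with Cma1 at 0.07 and Cpa3 at 0.15. S100a8, a calcium-binding alarmin of neutrophils and activated macrophages, had 10.47 on F1 and 7.36 on chow, while its usual partner S100a9 differed by −0.59. Csf3r, the neutrophil growth factor receptor, was at 0.01, and Mmp9, a gelatinase, was 3.38-fold lower.

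**Figure D4:**
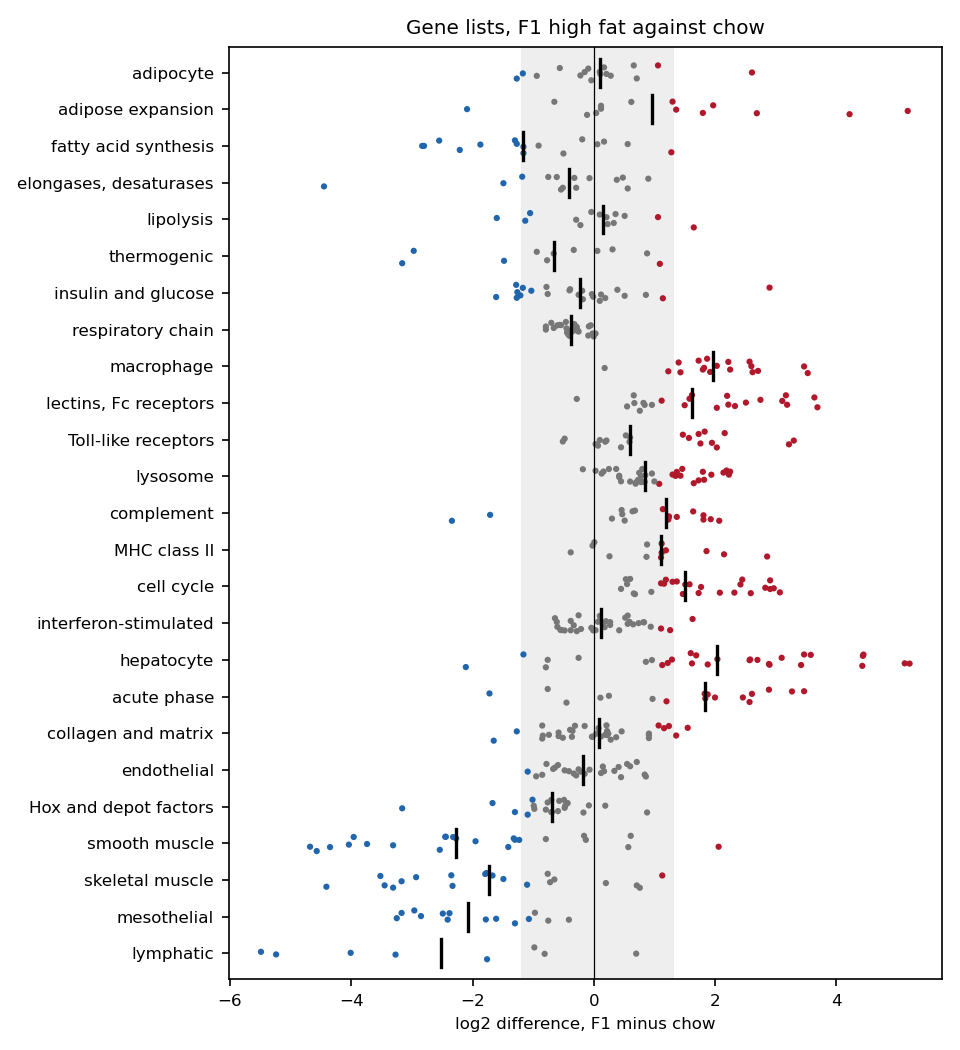
Log2 difference, F1 minus chow, of each detected gene (1 point) in 25 lists, with a black bar at the median of the list. Red points are genes at least 2-fold higher, blue points at least 2-fold lower, and the grey band spans the 5th to the 95th percentile of all genes, from −1.19 to 1.31.

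Cell cycle genes were higher on F1, 20 of 27 detected and 0 lower, with a median of 1.51. Prc1, which organises the spindle midzone, had a log2 signal of 8.76 on F1 and 5.69 on chow, Birc5, the survivin gene, 8.22 on F1 and 5.25 on chow and Cdk1, the mitotic kinase, 7.91 on F1 and 5.46 on chow. Top2a was detected on F1 alone at 6.93. Of the helicase subunit genes, which act in replication, Mcm5 was 2.85-fold higher, and Mcm2 and Mcm7 differed by 0.53 and 0.45. The thymidine kinase gene Tk1 was 7.13-fold higher (2.83, and 1.97 with its probes averaged). Uhrf1, which couples DNA methylation to replication, was 3.55-fold higher, and its partner Dnmt1 differed by 0.50. Macrophage markers were higher on the same array, by the medians above, and their part in this result was not tested.

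Mitotic promoters are known to carry a CCAAT box and, near the start, the cell cycle homology region TTTGAA. Both were found on either strand in 12 of the 22 cell cycle promoters available, 54.5%, against 7.21% of all promoters. The promoters of the 2 genes with the largest difference among those carrying both are shown. Capitals mark CCAAT, its reverse complement ATTGG, and TTTGAA (no TTCAAA, its reverse complement, is in these windows), and overlapping matches run together.
Cdca8, chr4:124936868-124937167, minus strand: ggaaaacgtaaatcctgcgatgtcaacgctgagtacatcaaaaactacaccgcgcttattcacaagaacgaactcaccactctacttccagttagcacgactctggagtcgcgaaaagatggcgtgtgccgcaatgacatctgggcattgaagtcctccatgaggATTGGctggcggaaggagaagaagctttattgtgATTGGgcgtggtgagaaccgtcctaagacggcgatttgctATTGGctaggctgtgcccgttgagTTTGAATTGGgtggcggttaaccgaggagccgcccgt
Cdca3, chr6:124829926-124830225, plus strand: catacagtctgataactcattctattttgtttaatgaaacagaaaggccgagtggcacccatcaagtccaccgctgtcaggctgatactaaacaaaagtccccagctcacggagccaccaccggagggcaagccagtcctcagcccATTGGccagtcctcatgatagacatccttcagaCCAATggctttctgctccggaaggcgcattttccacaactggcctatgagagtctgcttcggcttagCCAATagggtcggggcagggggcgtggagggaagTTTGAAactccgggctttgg
Cdca8, a subunit of the chromosomal passenger complex, had a log2 signal of 7.90 on F1 and 4.98 on chow (a difference of 2.91, and 2.14 with its probes averaged). Cdca3, which triggers entry into mitosis, had 8.20 on F1 and 5.29 on chow (2.91 and 2.30). The first window holds 4 matches of the CCAAT box and 1 of TTTGAA, the other 3 and 1.

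Genes of hepatocytes, cells that white fat does not contain, were among the largest differences. Of 41 listed genes with a named probe 29 were detected on F1 and 16 of those on chow, 22 being higher and 2 lower, with a median of 2.04 (1.88). Ambp, a plasma protease inhibitor precursor, was detected on F1 alone at a log2 signal of 8.88, at least 16.7-fold higher, and Apoa1, the main protein of high density lipoprotein, at 9.12, at least 19.7-fold higher. The fibrinogen alpha gene Fga was at least 8.20-fold higher and the haem carrier gene Hpx at least 8.81-fold. The albumin gene Alb and Fgb, Apob, Apoh, Cps1, Tat, Tdo2 and Fabp1, also defining genes of hepatocytes, were detected on neither array. Cyp2e1 and Mup2, which liver shares with fat, were 4.33-fold and 2.23-fold lower (Mup2 may share signal with its near-identical relatives). The summed signal of the detected list was 29200 on F1 and 46000 on chow, and its brightest genes weigh most in it. Of these Car3 had a log2 signal of 13.11 on F1 and 13.87 on chow, Trf 12.45 and 13.24, and Cyp2e1 11.78 and 13.89.

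The same genes differed between the high fat arrays. Ttr, the thyroxine carrier of plasma, had log2 signals of 4.42 on F0, 10.13 on F1 and 11.17 on F2, against 4.92 on chow. Apoa2 had 5.11, 9.96 and 11.61 on F0, F1 and F2, against 4.83 on chow. The median difference of the list from chow was 0.02 on F0, 2.04 on F1 and 2.65 on F2, all against the same chow array. Of the 29 genes 13 entered through detection on F1 alone, and detection on F0 or F2 played no part, so part of the gap between F0 and F1 is built in by the choice of genes. Between arrays of 1 pool each, the source of these transcripts was not tested.

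Apolipoproteins and acute phase genes overlap with that list but also hold genes of fat and macrophages. Pltp, the phospholipid transfer protein gene, had 8.62 on F1 and 6.07 on chow, Abcg1, a cholesterol exporter of macrophages, 8.04 on F1 and 6.28 on chow and Apobec1, the editing enzyme of Apob mRNA, 10.40 on F1 and 7.73 on chow. Apoe, made by macrophages and adipocytes, differed by 0.46. Hp, the haptoglobin gene, which white fat expresses, had 14.33 on F0, 14.26 on F1 and 14.07 on F2, against 11.66 on chow, and was thus high on all 3 high fat arrays. Crp and Hamp, which encode C-reactive protein and the iron hormone hepcidin, were detected on F1 and not on chow, at 6.84 and 6.87. Cp, the ceruloplasmin gene, was 3.28-fold lower.

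**Figure D5:**
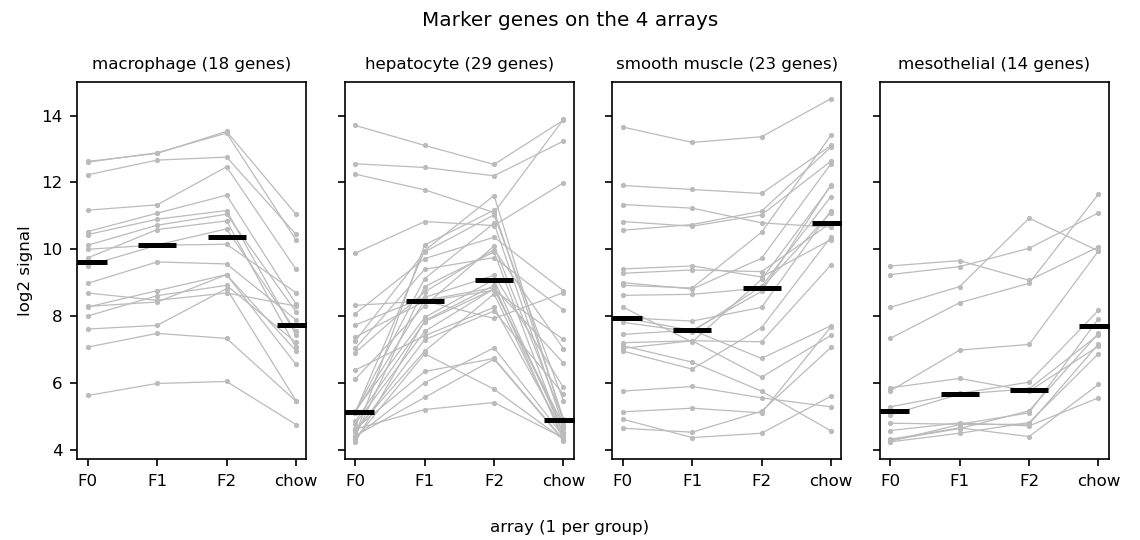
Log2 signal of each detected gene (grey points joined by lines) of 4 marker lists on the F0, F1, F2 and chow arrays, with a black bar at the median of the list. Macrophage medians lie above chow on all high fat arrays, the hepatocyte median lies near chow on F0 and above it on F1 and F2, and smooth muscle and mesothelial medians lie below chow.

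Contractile genes were lower on F1. Of 23 detected smooth muscle genes 17 were lower and 1 higher, with a median of −2.27 (−2.12), and their summed signal was 23000 on F1 and 86700 on chow. Actg2, the enteric smooth muscle actin, had a log2 signal of 8.84 on F1 and 13.41 on chow, Myh11, the smooth muscle myosin heavy chain, 7.57 on F1 and 11.93 on chow and Des, the desmin gene, 7.85 on F1 and 11.16 on chow. The tropomyosin gene Tpm2 was 16.5-fold lower (−4.04, and −2.48 with its probes averaged). Acta2, which vessels and activated fibroblasts also express, was 2.47-fold lower by its brightest probe, and its other probes lay as far down as −3.20. The pericyte markers Rgs5 and Notch3 differed by −0.13 and −0.16, and Cspg4 by 0.61. Synpo2 was the higher gene, detected on F1 alone at 6.62.

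The CArG box, read by serum response factor in many contractile genes, was found in 1 of 18 smooth muscle promoters available, 5.56%, against 1.53% of all promoters. The promoter that holds it is that of Myl9, the regulatory light chain of smooth muscle myosin, with log2 signals of 8.81 on F1 and 12.56 on chow. The box is in capitals.
Myl9, chr2:156775214-156775513, plus strand: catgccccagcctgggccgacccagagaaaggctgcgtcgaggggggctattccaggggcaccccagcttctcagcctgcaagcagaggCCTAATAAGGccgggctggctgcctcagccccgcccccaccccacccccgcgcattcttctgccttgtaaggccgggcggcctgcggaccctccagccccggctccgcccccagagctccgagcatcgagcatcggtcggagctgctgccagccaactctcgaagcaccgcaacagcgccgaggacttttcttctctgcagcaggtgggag

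Skeletal muscle genes, of fast and slow fibres, were lower in 13 of 20 and higher in 1, with a median of −1.72 (−1.54). Tnnc2, the fast troponin C gene, had 5.65 on F1 and 9.17 on chow and Mylpf, a fast myosin light chain, 5.05 on F1 and 8.50 on chow. Atp2a1, the calcium pump of fast fibres, was detected on chow alone at 8.94. Acta1, the skeletal actin gene, lay at 0.76, and Pvalb, the parvalbumin gene of fast fibres, was 2.20-fold higher.

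Mesothelial markers were lower in 11 of 14 and higher in 0, with a median of −2.08 (−1.86). Upk3b, a defining gene of the mesothelium, had a log2 signal of 8.40 on F1 and 11.65 on chow, Upk1b 6.98 on F1 and 9.95 on chow and Msln, the mesothelin gene, 5.66 on F1 and 7.44 on chow, and the summed signal of the list was 2790 on F1 and 9840 on chow. Simple keratins, which mesothelium and epithelia share, were lower too, Krt8 5.60-fold, Krt19 at least 5.82-fold and Krt7 at least 7.93-fold. Of the mammary list, 9 of 22 genes were detected, all 9 on chow and 2 on F1, and 6 were lower, of which Cldn4 and the basal factor gene Trp63 were at least 4.25-fold and at least 3.80-fold lower. The defining markers Epcam, Krt5, Csn2 and Csn3 were detected on neither array. Wfdc2, a secretory protein of epithelia of the reproductive tract, had 5.55 on F1 and 9.33 on chow.

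Lymphatic genes were lower in 5 of 8, and the near-identical Ccl21a and Ccl21c are both among them. Pdpn and Cxcl13 differed by −0.81 and −0.98, and Ccl19 lay on the other side at 0.70. The lymphatic markers Prox1 and Flt4 were detected on neither array. Ccl21a, the chemokine of lymphatic endothelium and lymph node stroma, had log2 signals of 5.40 on F0, 6.25 on F1 and 10.44 on F2, against 11.74 on chow. Reln, a lymphatic endothelial gene, had 5.20 on F1 and 9.21 on chow, Mmrn1 was detected on chow alone at 8.07, and Lyve1, the hyaluronan receptor, was 3.40-fold lower. Of 26 blood endothelial genes 1 was lower, Vegfa, a growth factor for vessels, and 0 were higher. Vegfa was at −1.09 by its brightest probe and −0.85 with its probes averaged, which ends its count. Cdh5 and Pecam1, adhesion molecules of endothelium, differed by 0.12 and −0.59.

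Most detected genes of the smooth muscle, skeletal muscle, mesothelial, lymphatic and mammary lists were thus lower on the F1 array. On the same array most macrophage and hepatocyte genes were higher and most fatty acid synthesis genes lower. Krt8, Krt18 and Krt19 stand in both the mesothelial and the mammary list, so these lists are not separate results. The labels do not describe the dissection, and the part of these other tissues in the remaining results was not tested. Haemoglobin genes, a gauge of blood in the sample, were level, with Hba-a1 at 0.18 and Alas2 at −0.11.

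Of 20 detected stromal progenitor genes 6 were lower and 1 higher, with a median of −0.14. The markers Pdgfra and Pi16 differed by −0.50 and 0.02, while Ptn, the pleiotrophin gene, had a log2 signal of 5.79 on F1 and 10.56 on chow, and the proteoglycan genes Ogn and Lum were 3.49-fold and 2.41-fold lower. Dpp4, Sema3c and Ccn2 differed by −1.17, −1.17 and −1.23, and Ccn5 was 3.38-fold higher. Of 35 collagen and matrix genes 5 were higher and 2 lower, with a median of 0.08. The higher genes included the fibrillar collagen gene Col5a3, 2.93-fold, Lox, the lysyl oxidase that crosslinks collagen, 2.57-fold, and the basement membrane gene Col4a2, 2.36-fold. The abundant fibrillar collagen genes Col1a1 and Col3a1 differed by −0.39 and 0.22, and Fbln1 was 3.13-fold lower. Among matrix proteases Adam8 was detected on F1 alone and was at least 9.53-fold higher, Mmp13, a collagenase, at least 3.89-fold, and Timp1, an inhibitor of these enzymes, 2.44-fold.

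Positional genes, which differ between fat depots, were on the low side. Of 22 detected Hox and depot factors 5 were lower and 0 higher, with a median of −0.70. Hoxd10, a posterior gene, had log2 signals of 5.66 on F0, 6.01 on F1 and 6.78 on F2, against 9.16 on chow. Tcf21, a factor of visceral fat progenitors, was 3.17-fold lower and Hoxa5 2.47-fold. Hoxc9, typical of inguinal fat, differed by −0.48.

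Among steroid receptor genes and their targets 5 of 14 were lower and 0 higher. Esr1, the estrogen receptor gene, had a log2 signal of 5.76 on F1 and 8.93 on chow, and Greb1, an estrogen-induced gene, was detected on chow alone at 7.23, at least 4.91-fold lower. Pgr, the progesterone receptor and another estrogen target, was detected on chow alone at 5.82, at least 1.85-fold lower. The glucocorticoid-responsive genes Fkbp5 and Tsc22d3 differed by 0.73 and 0.52. Socs2, a feedback gene of growth hormone signalling, had 7.46 on F1 and 10.29 on chow. The growth hormone receptor gene Ghr and Igf1 differed by −0.09 and 0.19 by their brightest probes (−0.59 and −0.12 with their probes averaged).

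Of 13 clock genes, core and output together, 4 were lower and 0 higher, with a median of −0.66. Dbp, a direct target of the clock, had 10.41 on F1 and 11.61 on chow, the core gene Per2 8.44 on F1 and 9.49 on chow (a difference of −1.04, and −0.94 with its probes averaged, which ends its count) and Bhlhe40 7.17 on F1 and 8.53 on chow, while the core genes Clock and Rora differed by 0.10 each and Arntl by 0.68. The time of day of sampling is not given in the labels.

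Of 25 genes of oxidative stress 5 were higher and 2 lower. Hmox1, which degrades haem, had a log2 signal of 8.47 on F1 and 5.21 on chow, and genes of the phagocyte oxidase were higher, Cyba 4.30-fold and Ncf4 3.53-fold. The secreted superoxide dismutase gene Sod3 was 2.85-fold higher. The 2 lower genes were Gsta4, which clears lipid aldehydes, at 7.82-fold, and the secreted peroxidase gene Gpx3, at 3.43-fold. The NRF2 gene Nfe2l2 differed by −0.10. Nqo1, a target of NRF2 that was dim on both arrays (5.43 on F1, 5.48 on chow), differed by −0.05, and NRF2 targets were not counted as a set. Of 22 genes of the unfolded protein response 5 were higher and 1 lower, with Atf3 at 8.55 on F1 and 5.93 on chow and Ddit3, the CHOP gene, 2.16-fold higher, while Xbp1 differed by −0.65. Among immediate early genes Egr2 and Fos were 2.76-fold and 2.20-fold higher, and Egr1 and Hspa1a 2.56-fold and 3.68-fold lower.

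Epigenetic regulators were listed because the study follows generations. Of 26 histone-modifying genes 0 were counted either way, with a median of −0.31. In the DNA methylation list 5 of 14 were higher and 2 lower. Gadd45a and Gadd45b, linked to DNA damage and demethylation, were 2.67-fold and 3.52-fold higher (for Gadd45b 1.82, and 1.15 with its probes averaged). Gnmt, a glycine methyltransferase abundant in liver, had 4.75 on F0, 6.86 on F1 and 8.39 on F2, against 4.89 on chow, a difference of 1.97 between F1 and chow (1.25 with its probes averaged). Ahcy, which clears S-adenosylhomocysteine, was at −1.11 by its brightest probe and −0.96 with its probes averaged, which ends its count, and the methyltransferase gene Dnmt3b differed by −0.49.

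Of 22 cholesterol genes 4 were higher and 0 lower, with a median of 0.27. Npc2, which exports cholesterol from lysosomes, had 11.16 on F1 and 9.81 on chow, and its partner Npc1 differed by 0.78. The synthesis gene Sc5d was 2.08-fold higher, whereas Sqle and Fdps, also of synthesis, differed by −0.41 and −0.19. In the serotonin list Tph2, the neuronal tryptophan hydroxylase, had log2 signals of 11.38 on F0, 11.71 on F1 and 11.33 on F2, against 4.48 on chow, where it was not detected. Gch1, which makes the cofactor of that enzyme, was 2.92-fold higher and Htr2b, a serotonin receptor, 2.27-fold, while the transporter gene Slc6a4 was 2.52-fold lower. Tph1, Ddc, Maoa, Slc18a1, Slc18a2, Htr1b, Htr2a, Htr2c, Htr3a and Htr7, also on that list, were detected on neither array. Among nerve genes Npy, a sympathetic transmitter also made by macrophages, was detected on F1 alone at 6.76, and Ngfr, the low affinity neurotrophin receptor of Schwann cells, had 5.61 on F1 and 8.42 on chow.

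Of the 20 largest differences each way among genes detected on both arrays, not all are described above. In the lists, Gpnmb was 19.3-fold higher, Ccl3 11.6-fold and Serpina1d, with its paralogs, 10.7-fold, and the muscle genes Pdlim3 and Tagln were 25.6-fold and 15.5-fold lower. Outside the lists, Dpep2, a membrane dipeptidase, was 22.8-fold higher (4.51, and 3.83 with its probes averaged) and the membrane-bound metalloprotease gene Mmp17 10.3-fold lower. Rgs1, which dampens chemokine receptor signalling, had a log2 signal of 9.92 on F1 and 5.87 on chow, Lat2, an adaptor of myeloid and B cells, 10.46 on F1 and 6.91 on chow and Arl11 9.70 on F1 and 6.05 on chow. Arhgap25, a phagocyte regulator of Rac, had 8.83 on F1 and 5.50 on chow, and Zranb3, a helicase of stalled replication forks, was 10.9-fold higher. Detected on F1 alone were Gdf3, a TGF-beta family member of adipose macrophages, at least 23.5-fold higher, Slc37a2, a sugar phosphate transporter of macrophages, at least 18.2-fold, the gastric lipase gene Lipf, at least 19.4-fold, and the choline transporter gene Slc5a7, at least 16.7-fold. On the lower side Acsm3, a medium-chain acyl-CoA synthetase, was 18.7-fold lower (−4.23, and −3.23 with its probes averaged) and Flrt1 15.9-fold (−3.99 and −2.85). Mrvi1, a target of cGMP kinase in smooth muscle, had 7.34 on F1 and 11.00 on chow and Asb2, a ubiquitin ligase subunit of muscle and blood cells, 5.51 on F1 and 9.20 on chow. Detected on chow alone were Bves, a membrane protein of muscle, Sema3a, an axon guidance cue, Isl1, a transcription factor of visceral fat progenitors, Sh3gl2, Tmem255a and Psca, with log2 signals on chow of 8.62, 7.99, 7.83, 8.04, 7.84 and 7.81. They were at least 12.8-fold, at least 8.27-fold, at least 7.42-fold, at least 8.58-fold, at least 7.50-fold and at least 7.34-fold lower (for Bves fitted −4.25, and −3.61 with its probes averaged).

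The other high fat generations share the chow array with this comparison, so their values are set beside it and nothing is read from their likeness. The 837 genes higher on F1 had median log2 signals of 7.69 on F0, 7.98 on F1 and 8.19 on F2, against 6.11 on chow, and the 720 lower ones 5.81, 5.79 and 6.03, against 7.68 on chow. The genes were chosen by their F1 and chow values, and since all 3 high fat arrays are read against that chow array, the distance of the F0 and F2 medians from chow follows in part from that choice too. Between the F1 and F0 arrays themselves 30 genes were at least 2-fold higher on F1 and 5 lower. This was counted among those of the 9280 genes detected on F1 and chow that were also detected on F0. The count leaves out wide gaps such as Ttr, whose F0 signal of 4.42 lies under the dimmest detected probe there, 4.89. Ambp, not detected on chow, is left out too, with 4.39 on F0 and 8.88 on F1. The widest differences from F0 on the high side were in hepatocyte genes, such as Serpina1b with 7.25 on F0, 9.92 on F1 and 11.03 on F2, against 5.46 on chow (its paralogs may share signal). In the other direction S100a9 had log2 signals of 6.85 on F0, 5.35 on F1 and 6.38 on F2, against 5.95 on chow. Slc27a1, a fatty acid transporter, came next, with 9.89 on F0, 8.43 on F1 and 8.08 on F2, against 8.75 on chow. Against F2, the genes furthest below were lymphoid and lymphatic: Fcmr, an IgM receptor of B cells, had 6.28 on F0, 6.16 on F1 and 11.15 on F2, against 5.62 on chow, and H2-Ob, a regulator of antigen loading in B cells, 5.32, 5.12 and 9.13, against 5.14 on chow. The furthest above F2 included Aplnr, the apelin receptor of endothelium, with 6.22, 6.94 and 5.10 on F0, F1 and F2, against 6.11 on chow, and Amhr2, the receptor of anti-Müllerian hormone, with 7.93, 7.33 and 5.89, against 5.73 on chow.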

How the data were processed

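Adipose RNA was extracted with RNAiso Plus and labelled with an Illumina TotalPrep kit, per the labels' protocols. The authors deposited non-normalized probe intensities with a detection p-value for each probe, read with GenomeStudio 2010.2 per the submitters' processing notes. The deposited intensity columns of all 4 arrays have the same mean, 274.4, so some scaling preceded deposit, and its steps are not given in the sources used here. The deposited detection p-value moves in steps of 1 in 936. The number of arrays limits the precision.

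Intensities were background-corrected from the detection p-values (limma 3.58.1 in R 4.3.3, nec, offset 16), quantile normalized over the 4 arrays and put on the log2 scale. The normalization was tested on simulated data. The authors' deposited background-subtracted intensity table, other backgrounds, scalings, detection limits, folds and probe summaries were alternatives. Of 45281 probes 34885 carried 1 gene symbol, 18 several and 10378 none, and only the first kind was used. Symbols were updated by gene ID for 34807 probes and kept for 78.

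The genes, lists and names were chosen with earlier results of these data known. The rule for naming took the 20 largest differences each way among genes detected on both arrays, with all probes on the same side. To these came the 10 largest bounds each way, the 5 genes furthest each way from F0 and from F2, and 19 genes of general interest where a list held them. Of each of 65 lists up to 8 genes with the largest differences each way and 3 with the smallest could be named. Csf1r, Top2a, Mcm5, Acta2, Apoe, Cd3e, Hoxc9, Col1a1 and Col3a1 fell outside this rule and were named after their values were seen. Promoter sequences came from the RefSeq table of GRCm38.p6, which held 6889 of the 10768 genes.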

Additional observations from a re-analysis of the deposited data

Results flagged for a closer look

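Of 2813 detected probes that carry no gene symbol, 163 were at least 2-fold higher on F1 than on chow and 210 lower. They entered no gene count.

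Some genes lay on opposite sides of chow by at least 2-fold on F1 and on another high fat array. The comparisons share the chow array, have 1 array a group, and these differences between generations were not tested. Itih4 and Mup3, genes of liver secretory proteins, were at 1.88 and 1.22 on the log2 scale for F1 minus chow (Itih4 1.06 with its probes averaged), and at −1.48 and −1.15 for F0 minus chow. Mup3 may share signal with other major urinary protein genes. Ly6d, a lymphoid and epithelial surface marker, was at −2.78 for F1 minus chow and 1.45 for F2 minus chow. Satb1, a chromatin organiser of T cells, was at −1.44 for F1 and 1.05 for F2, and Ripor2 at −1.39 and 1.47. Zcchc18, detected on chow and not on F1, was at −1.18 or beyond for F1, against the lowest detected signal there, and at 2.33 for F2. Ripor2, Satb1 and Zcchc18 were named after their values were seen.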

How the results depend on the processing

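No paired analysis was possible because each group has 1 array, and for the same reason no replicate could be left out. Against the 837 higher and 720 lower genes, 518 and 416 were counted without background correction, 544 and 438 with an offset of 50, 1767 and 1699 at 1.5-fold, and 202 and 187 at 4-fold. With the authors' background-subtracted values 903 were higher and 1191 lower, so that 43.1% of the counted genes were higher, against 53.8% as reported and 47.1% under median scaling (759 and 852). The remaining alternatives, namely normalization of the F1 and chow arrays alone, a floor under undetected signals, a detection p under 0.05, genes detected on both arrays only and the mean over probes, kept the counts within 1.5 times, from 636 to 842 higher and from 496 to 724 lower. Of these, a detection p under 0.05 could hardly change the counts, since the genes it adds lie near the floor. Of 318 counted genes that the naming rule covers, 51 fell under 2-fold without background correction, 44 with an offset of 50, 11 with the mean over probes, 10 with the floor, 8 under median scaling and 2 with the authors' table. Their fold changes moved by over 1.5 times for 112 without background correction, 97 with the offset of 50, 67 with the authors' values and 31 with the mean over probes. Of the genes named in the report, Ahcy, Col5a3, Cxcl1, Cxcr4, Fads2, Fgf21, Gpam, Grb10, Hcar2, Htr2b, Irf8, Lpin3, Pck1, Per2, Pgr, Rasgrf1, Sc5d, Sema3c, Slc2a3, Slc6a4, Srebf1, Tbx1, Tgfb2 and Trib3 were under 2-fold without background correction. Of these 318, 0 changed sign under any of the alternatives. Dim genes, whose signal lies near background, are limited most by these choices.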
